A study of Homo sapiens with 24 samples.

Results

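Transcriptional regulators of nuclear mitochondrial genes were followed across libraries labelled SH-SY5Y, an established line from a human neuroblastoma: *PPARGC1A*, *PPARGC1B*, *PPRC1*, *NRF1*, *GABPA*, *ESRRA*, *YY1* and *HCFC1*. These genes were chosen by name, and all 8 were found among the 63241 genes measured in untreated cells and the 36741 measured in treated cells. The RNA came from 24 libraries, 3 in each of 8 groups. The untreated groups were shScramble, a scrambled short hairpin control, shMCART1, a knockdown of MCART1, oeNC, the overexpression control, and oeMCART1, an overexpression of MCART1. The other 4 groups were the same lines after 24 h in 0.5 mM MPP+ (1-methyl-4-phenylpyridinium), a toxin that blocks complex I of the respiratory chain. MCART1 is the older name of *SLC25A51*, which encodes the carrier that brings NAD+ into mitochondria. The comparisons ask how the transcriptome answers to less or more MCART1 with and without that stress. The labels name no hairpin sequence, vector or promoter, do not say whether a line is 1 clone, and do not say that replicates were separate cultures, so the p-values measure the spread between these libraries, which may be technical.

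Most proteins of mitochondria are encoded in the nucleus, and their genes are switched on by a small set of DNA-binding factors, among them NRF1, the ETS-family protein GABPA, the orphan nuclear receptor ESRRA and the zinc finger protein YY1. Coactivators of the PGC-1 family, encoded by *PPARGC1A*, *PPARGC1B* and *PPRC1*, dock on these factors and recruit the transcription machinery. HCFC1 is a chromatin-bound cofactor that joins GABP, YY1, ZNF143 and THAP11 to histone-modifying complexes, and targets of the network include *TFAM*, the packaging and transcription factor of mitochondrial DNA, and the subunits of the respiratory chain.

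In GENCODE 29 (GRCh38) the coactivator genes are *PPARGC1A* on chromosome 4 from 23755041 to 23904089 (minus strand), *PPARGC1B* on chromosome 5 from 149730298 to 149855022 (plus strand) and *PPRC1* on chromosome 10 from 102132994 to 102150331 (plus strand). Those of the DNA-binding factors are *NRF1* on chromosome 7 from 129611714 to 129757082 (plus strand), *GABPA* on chromosome 21 from 25734570 to 25772460 (plus strand), *ESRRA* on chromosome 11 from 64305572 to 64316743 (plus strand) and *YY1* on chromosome 14 from 100238298 to 100282792 (plus strand), and the cofactor gene is *HCFC1* on chromosome X from 153947553 to 153971807 (minus strand).

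Values are TPM (transcript counts scaled per length and per library total, so that levels of different genes can be compared), the depth behind them is unknown, and the 3 libraries per group limit the precision. Changes are differences in log2(TPM + 1), which understates the change of low genes, and were tested with limma over every gene that reached 1 TPM in 3 or more of a table's libraries. A gene was called at a Benjamini-Hochberg adjusted p under 0.05. *SLC25A51* stood at 66.5% of its control in shMCART1 and 67.5% in MPP+-treated shMCART1 cells, 21.6 times its control in oeMCART1 and 110.3 times in treated oeMCART1 cells, without overlap. Untreated oeNC cells had 2.89 times the *SLC25A51* level of shScramble cells, and treated oeNC cells 1.07 times that of treated shScramble cells. Of 9 noradrenergic markers that define the line, 4 reached a median of 1 TPM (*HAND2* 2.65, *GATA3* 5.11, *ISL1* 2.66 and *CHGA* 1.55 TPM), while *TH* and *PHOX2A* had a median of 0 (*PHOX2A* listed in 12 libraries only). Mesenchymal markers reached 1 TPM in 4 of 5 cases (*VIM* 300.5 to 629.2 TPM), fibroblast markers in 1 of 4 (*COL1A1*, 1.78 to 26.6 TPM), glial markers in 1 of 3 (*GFAP*, 0.84 to 5.45 TPM) and leukocyte markers in 0 of 4. *COL1A1* changed by 0.44 and *GFAP* by 0.49 in the untreated knockdown and by -1.73 and -0.91 with overexpression in MPP+, all called, and the part of such cells in the results there was not tested. In bulk RNA, fewer cells of a type and less RNA per cell cannot be told apart.

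**Figure D1:**
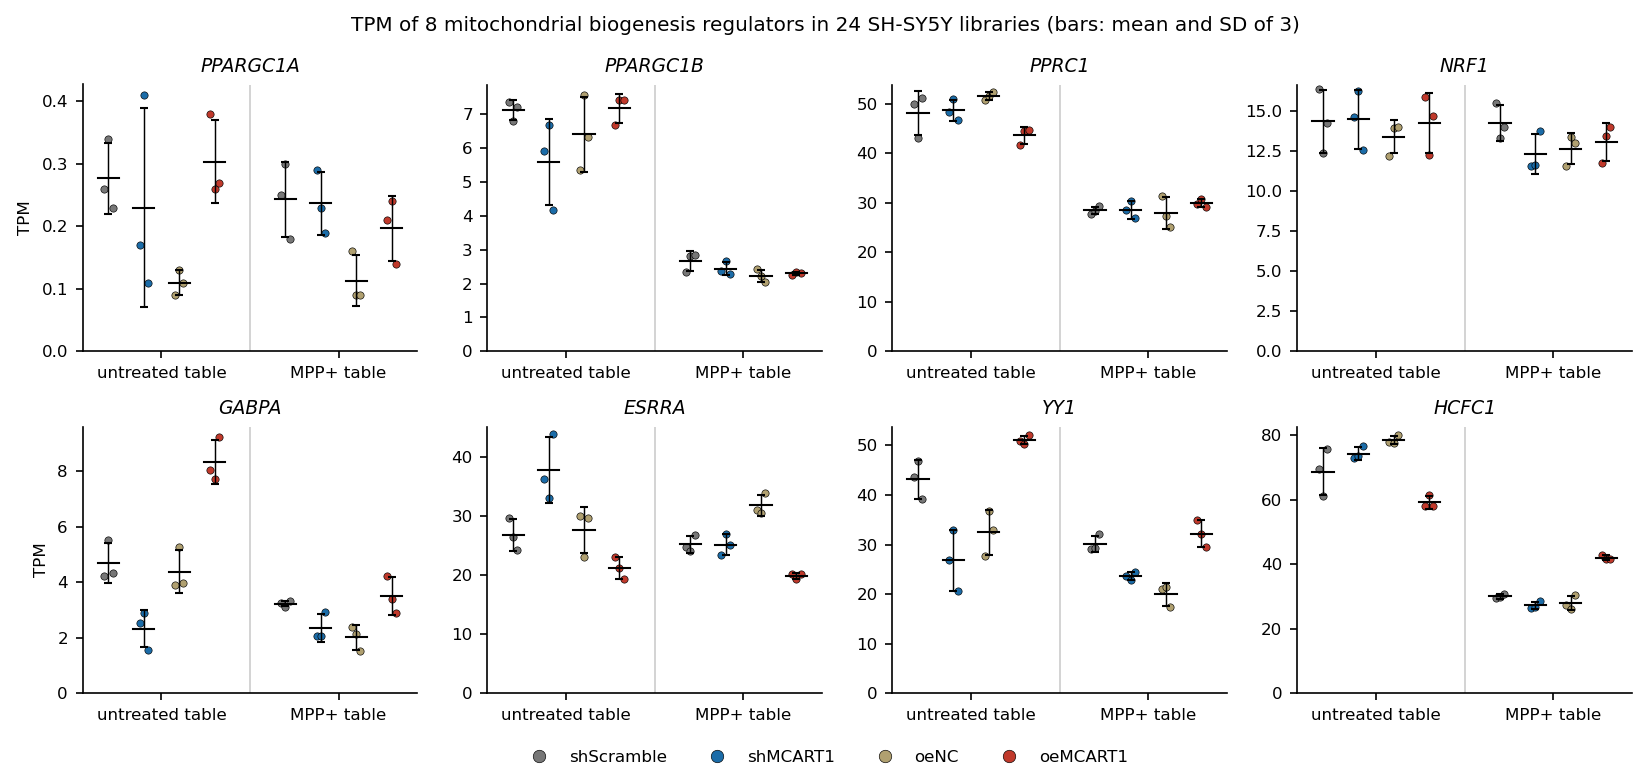
TPM (vertical axes, each from 0) of the 8 regulators in every library, by group, with untreated groups left and MPP+ groups right of the grey line, which were scaled in separate tables. Bars mark the mean and SD of 3 libraries. Untreated, *YY1* and *GABPA* have their lowest mean in shMCART1 and their highest in oeMCART1 cells, while in MPP+ their lowest is in oeNC cells. *HCFC1* in oeMCART1 has the lowest mean without MPP+ and the highest with it.

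*GABPA* and *YY1* were lower and *ESRRA* higher with the knockdown in untreated cells. With overexpression *GABPA* and *YY1* were higher, and *ESRRA*, *HCFC1* and *PPRC1* lower. In MPP+ the knockdown had 1 call, lower *YY1*, whereas overexpression had higher *GABPA*, *YY1* and *HCFC1* and lower *ESRRA*. Of the 8 regulators 7 passed the filter on low values in both tables, and *PPARGC1A* did not. The untreated knockdown called 3 of 7 (42.9%) beside 34.2% of all genes tested, 1 higher (8.64% of all genes) and 2 lower (25.6%). Untreated overexpression called 5 of 7 (71.4%) beside 48.2%, 2 higher (33.5%) and 3 lower (14.7%). In MPP+ the knockdown called 1 of 7 (14.3%) beside 33.1%, 0 higher (10.8%) and 1 lower (22.2%), and overexpression 4 of 7 (57.1%) beside 60.9%, 3 higher (46.7%) and 1 lower (14.2%). With calls this frequent over all genes, the counts do not set the regulators apart. The median log2 change of the 7 regulators was 0.01, 0.08, -0.14 and 0.10 in that order, beside -0.15, 0.16, -0.08 and 0.26 over all genes tested.

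Measured properties of the whole tables move with these results. The log2 change of a gene followed the GC content of its transcript, with a Spearman correlation across genes of 0.77, -0.79, 0.46 and -0.59 in the 4 comparisons (genes are not independent replicates). The regulators span that range: the longest annotated transcript of *GABPA* has 36.4% GC, lower than in all but 3.3% of genes tested, *YY1* 48.4% and *NRF1* 48.6% lie at the median of 48.8%, and *PPRC1* (56.8%), *HCFC1* (61.5%) and *ESRRA* (63.2%) lie above it. Values with the GC trend of each library removed are therefore given beside the deposited ones. The balance of calls also moved with scaling: 1271 genes were higher and 3764 lower in the untreated knockdown, but 2954 and 2957 after median-of-ratios scaling. For untreated overexpression 4927 higher and 2155 lower became 3848 and 3814, and 3293 and 323 with the GC trend removed. For the knockdown in MPP+ 1616 and 3308 became 2598 and 2228, and for overexpression in MPP+ 6949 and 2118 became 3969 and 4322. Between the controls 29 higher and 160 lower became 98 and 95 untreated, and 764 and 6370 became 3324 and 2477 in MPP+. That scaling moved the median of all genes in the 4 comparisons to 0.02, -0.02, 0.01 and -0.01.

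**Figure D2:**
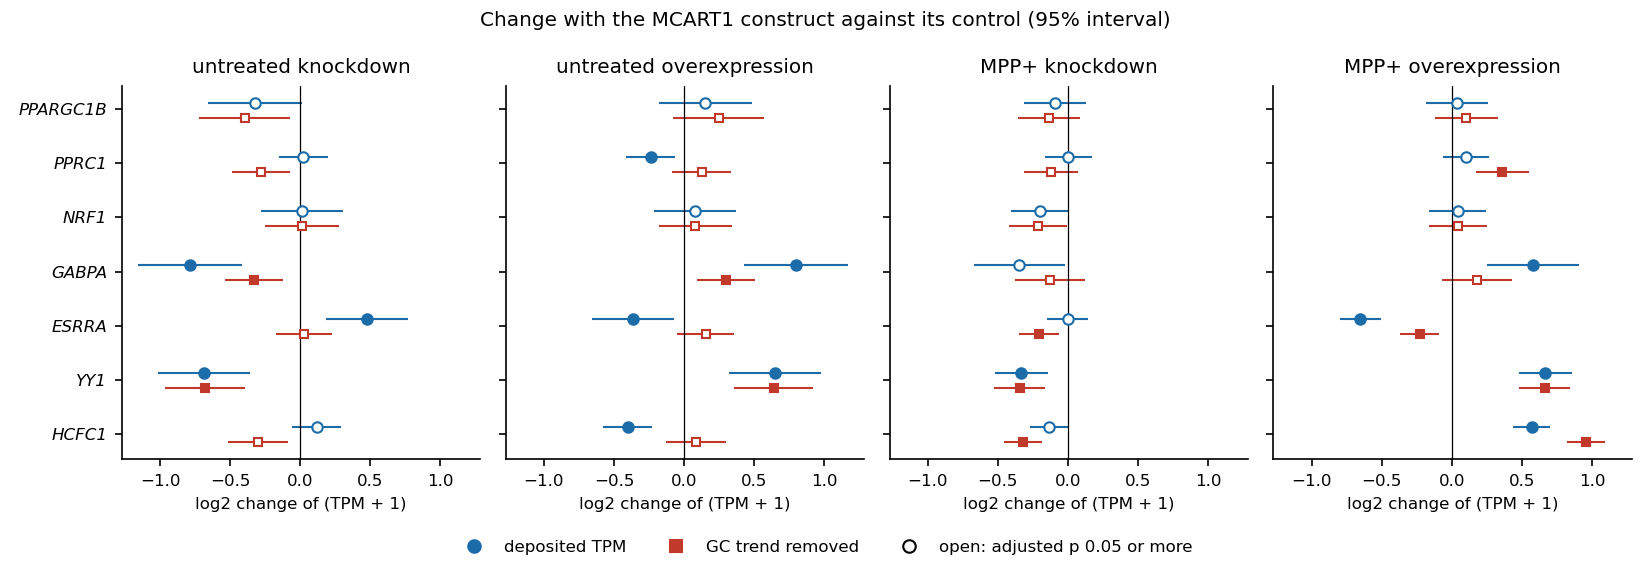
Log2 change of (TPM + 1) with its 95% interval for the 7 tested regulators in the 4 comparisons of an MCART1 construct with its control (3 libraries each). Blue circles are deposited values, red squares values with the GC trend removed, and open symbols an adjusted p of 0.05 or more. *YY1*, whose transcript GC lies near the median so that the removal could move it little, is nearly the same either way. *ESRRA* in the untreated knockdown goes from 0.47 to 0.03 and *HCFC1* under overexpression in MPP+ from 0.57 to 0.96.

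Among the coactivators, *PPARGC1A*, which encodes PGC-1α, the family member induced by cold and exercise in other tissues, was near absent. It read 0.09 to 0.41 TPM in the 12 untreated and 0.09 to 0.30 TPM in the 12 treated libraries. Within that low range the oeNC libraries were lowest, at 0.09, 0.13 and 0.11 TPM untreated. The oeMCART1 libraries read 0.38, 0.26 and 0.27 TPM, above oeNC without overlap, and shScramble 0.26, 0.34 and 0.23 TPM (two-sided exact permutation test, p = 0.1 for oeMCART1 against oeNC, the smallest that 3 libraries against 3 allow). In MPP+ the oeNC libraries, at 0.16, 0.09 and 0.09 TPM, again lay below all 3 shScramble libraries (0.25, 0.30 and 0.18 TPM), with the same exact p of 0.1. Treated oeMCART1 cells (0.21, 0.24 and 0.14 TPM) overlapped oeNC, and the knockdown overlapped its control in both tables.

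*PPARGC1B*, the gene of PGC-1β, was the more abundant of the PGC-1α and PGC-1β pair but still below 8 TPM. Untreated shScramble libraries had 7.36, 6.78 and 7.20 TPM and shMCART1 libraries 5.90, 6.66 and 4.17 TPM. The 3 knockdown libraries were all below the controls, but the change of -0.32 (95% interval -0.65 to 0.01) did not pass the test (limma adjusted p = 0.113). It passed without shMCART1 replicate 2 (-0.44, adjusted p = 0.0353) and with library weights (-0.26, adjusted p = 0.00225), and ranged from -0.44 to -0.16 with each library left out. The change was 0.15 with overexpression, -0.09 with the knockdown in MPP+ and 0.04 with overexpression in MPP+, each with a 95% interval that spans 0. After MPP+ the gene read 2.04 to 2.85 TPM in every library, and all neighbours in the order of the 4 treated groups overlapped.

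*PPRC1*, which encodes the PGC-1-related coactivator known as an early growth-responsive member, was the most abundant of the family, at 41.7 to 52.3 TPM untreated and 25.1 to 31.4 TPM treated. It was lower with untreated overexpression: oeNC libraries had 50.8, 51.5 and 52.3 TPM and oeMCART1 libraries 41.7, 44.5 and 44.6 TPM. Those groups did not overlap, while oeMCART1 overlapped shScramble (42.97 to 51.15 TPM). The change against oeNC was -0.24 (SE 0.08, adjusted p = 0.0299). With the GC trend removed it was 0.12 and not called, and the call was lost when any 1 of the 6 libraries was left out, each alone (adjusted p 0.0511 to 0.102). In the other 3 comparisons *PPRC1* changed by 0.02, 0.00 and 0.10 and was not called. For overexpression in MPP+ the sign depended on scaling, with -0.22 (adjusted p = 0.0206) after median-of-ratios scaling and 0.36 (adjusted p = 0.00373) with the GC trend removed, and it was called higher without treated oeNC replicate 1 (0.18, adjusted p = 0.034). Its RefSeq promoter was one of 347 among 35116 (0.99%) with the 11-base motif of ZNF143 and THAP11, DNA-binding partners of HCFC1, searched on both strands. The match, at -52 to -42 from the RefSeq start, is printed within chr10:102132979-102133007 (GRCh38.p14, plus strand, at -61 to -33, over an annotated *PPRC1* exon) and is shown because *PPRC1* and *HCFC1* differed together in the test of the overexpression effects given further on. Capitals mark the match, read on the opposite strand.
PPRC1: tgtcattcgGGAGTTGTAGTtcctttccc

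*NRF1*, the gene of nuclear respiratory factor 1, was not called in any comparison. Its libraries read 12.2 to 16.4 TPM untreated and 11.6 to 15.5 TPM treated, and all neighbouring groups overlapped in both tables. The changes were 0.01 (95% interval -0.28 to 0.30) for the untreated knockdown and 0.08 (-0.21 to 0.37) for untreated overexpression. In MPP+ they were -0.20 (-0.41 to 0.01) for the knockdown and 0.04 (-0.17 to 0.25) for overexpression. Removing the GC trend gave 0.01, 0.08, -0.21 and 0.04 in the same order. After median-of-ratios scaling the last value was -0.27 (adjusted p = 0.0444), so a lower level relative to other genes was called there.

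*GABPA* encodes the DNA-binding subunit of GABP, which carries no activation domain and works with the subunit encoded by *GABPB1* or *GABPB2*. It was among the lower regulators, and the MCART1 groups stood at the ends of its order in untreated cells. The shMCART1 libraries had 2.53, 2.88 and 1.58 TPM against 4.22, 5.52 and 4.32 TPM in shScramble. The oeMCART1 libraries had 8.04, 7.70 and 9.22 TPM against 3.91, 5.28 and 3.96 TPM in oeNC. Neither pair overlapped, while the controls overlapped each other. The changes were -0.79 (SE 0.17, adjusted p = 0.0148) and 0.80 (SE 0.17, adjusted p = 0.00565), and with the GC trend removed -0.33 and 0.30, both still called.

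In MPP+ the shMCART1 libraries (2.07, 2.06 and 2.93 TPM) lay below shScramble (3.26, 3.12 and 3.32 TPM), but the change of -0.35 was not called (adjusted p = 0.0973). It was called without treated shMCART1 replicate 3 (-0.47, adjusted p = 0.0423) and with library weights (-0.36, adjusted p = 0.0426), and was -0.13 and not called with the GC trend removed. The oeMCART1 libraries (4.23, 3.40 and 2.88 TPM) lay above oeNC (2.38, 2.14 and 1.53 TPM), with a change of 0.58 (SE 0.15, adjusted p = 0.00535). That call ended with the GC trend removed (0.18) and after median-of-ratios scaling (0.34, adjusted p = 0.0543). Treated oeMCART1 cells overlapped treated shScramble cells. *GABPA* shares its start region with *ATP5PF*, a subunit gene of ATP synthase on the opposite strand (starts 68 bases apart in one RefSeq pair), and annotated exons of both genes overlap. *ATP5PF* averaged 481.3 TPM untreated and 411.4 TPM treated and changed by 0.24 with untreated overexpression and 0.37 with overexpression in MPP+, both called, and by -0.05 and -0.08 with the knockdown, not called. Whether counting used the strand is not given in the sources used here, and the share of such reads in *GABPA* was not tested. The shared start region holds the sequence CCGGAAGT, bound by ETS factors such as GABP itself, which 1453 of 35116 RefSeq promoters hold (4.14%), either strand counted. It is printed from chr21:25734896-25734921 (GRCh38.p14, plus strand, at -76 to -51 from the RefSeq start, over annotated exons of both genes), with the match in capitals as read on the opposite strand.
GABPA: ctccgctctACTTCCGGccctggctc

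*ESRRA* encodes ERRα, an orphan receptor that partners with PGC-1 coactivators on genes of oxidative metabolism. In untreated cells it was highest with the knockdown, where libraries read 36.3, 33.1 and 44.0 TPM against 29.8, 26.5 and 24.2 TPM in shScramble. The oeMCART1 libraries (23.0, 21.2 and 19.4 TPM) lay just below oeNC (30.1, 23.2 and 29.8 TPM), without overlap. The changes were 0.47 (SE 0.13, adjusted p = 0.0239) and -0.36 (SE 0.13, adjusted p = 0.0414). Both calls ended with the GC trend removed, at 0.03 and 0.15, and both were lost when single libraries were left out. In MPP+ the knockdown change was -0.00 (95% interval -0.15 to 0.14) and not called, while removing the GC trend gave -0.21 (adjusted p = 0.0303), called lower. Treated oeMCART1 libraries had 20.2, 19.3 and 20.2 TPM, below every other treated library, and oeNC libraries 31.1, 30.6 and 33.9 TPM, above every other. This change, -0.65 (SE 0.07, adjusted p = 8.4e-06), was -0.23 with the GC trend removed and still called. It spans both sides of the other control: shScramble, at 24.9, 24.0 and 26.8 TPM, lay between both groups without overlap.

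Exons of *ESRRA* overlap those of *TRMT112*, an adaptor of RNA methyltransferases on the opposite strand that averaged 408.9 TPM untreated and 324.2 TPM treated. *TRMT112* changed by 0.27 and -0.26 in the untreated knockdown and overexpression and by 0.24 in the MPP+ knockdown, all called, and by -0.09 with overexpression in MPP+, not called. Its part in the *ESRRA* values was not tested. *ATP5PF* and *TRMT112* were named after their values were seen. The *ESRRA* promoter was the one among the 6 found in the RefSeq table with the 10-base NRF1 motif (2031 of 35116 promoters, 5.78%, both strands), and it is printed because *ESRRA* moved while *NRF1* was not called. It comes from chr11:64305422-64305449 (GRCh38.p14, plus strand, at -102 to -75 from the RefSeq start, over no annotated exon), with the match, read on the opposite strand, in capitals.
ESRRA: cgtccgggcGCGCAGGCGCcgcccgccc
None of the 6 promoters held the ERR motif TCAAGGTCA (0.35% of promoters) or the CREB motif TGACGTCA (1.85%). The YY1 motif AANATGGC (6.58%) matched in *PPRC1* and the E-box CACGTG (7.26%) in *PPARGC1A*. *NRF1* and *HCFC1* were the promoters not found in the table. A match is a description of the sequence, not a bound site.

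*YY1*, a zinc finger factor that recruits PGC-1α to mitochondrial genes in a manner that depends on mTOR, was called in all 4 comparisons. In untreated cells shMCART1 libraries had 26.9, 32.9 and 20.7 TPM against 43.5, 46.8 and 39.1 TPM in shScramble. The oeMCART1 libraries had 50.8, 50.4 and 52.0 TPM against 27.7, 36.7 and 32.9 TPM in oeNC. Knockdown libraries thus lay below and overexpression libraries above all their controls. The changes were -0.69 (SE 0.15, adjusted p = 0.0149) and 0.65 (SE 0.15, adjusted p = 0.00693). In MPP+ the knockdown libraries read 23.7, 22.9 and 24.4 TPM and shScramble 29.1, 29.3 and 32.1 TPM, a change of -0.33 (SE 0.09, adjusted p = 0.0118). The oeMCART1 libraries read 35.0, 32.0 and 29.5 TPM and oeNC 21.1, 21.4 and 17.3 TPM, a change of 0.67 (SE 0.09, adjusted p = 4.29e-05). After removal of the GC trend the 4 changes were -0.68, 0.64, -0.35 and 0.66, all called. Its transcript has 48.4% GC, near the median of 48.8%, so this removal could move *YY1* little.

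Treated oeMCART1 cells (32.2 ± 2.8 TPM, SD, n = 3) overlapped treated shScramble cells (30.1 ± 1.7), while treated oeNC cells (19.9 ± 2.3) were the lowest group. In untreated cells oeNC also lay below shScramble without overlap, and oeMCART1 above it. The oeNC minus shScramble change was -0.41 untreated (adjusted p = 0.108) and -0.58 in MPP+ (adjusted p = 3.4e-04). The *YY1* promoter window had 82.7% GC, a higher share than in 99.1% of promoters, with 49 CpG dinucleotides and none of the motifs searched.

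*HCFC1*, the most abundant regulator in untreated cells, changed in opposite directions on the deposited values with overexpression in the presence and absence of MPP+. Untreated oeMCART1 libraries had 58.2, 61.4 and 58.0 TPM against 78.1, 77.7 and 80.0 TPM in oeNC. Treated oeMCART1 libraries had 42.9, 41.5 and 41.6 TPM against 27.5, 26.0 and 30.4 TPM in oeNC. Untreated, the overexpression libraries were thus all below oeNC, and in MPP+ all above every other treated library. Untreated oeMCART1 overlapped shScramble, and untreated oeNC lay above shScramble without overlap. The changes were -0.40 (SE 0.08, adjusted p = 0.00472) and 0.57 (SE 0.06, adjusted p = 1.09e-05). The fall in untreated cells ended with the GC trend removed (0.09, adjusted p = 0.525), whereas the rise in MPP+ was then 0.96. That removal keeps the mean of each library, and the medians of all genes were then 0.20 untreated and 0.27 in MPP+. In MPP+ 6965 genes were called higher and 1236 lower. The knockdown values were 0.12 untreated and -0.14 in MPP+, neither called. The untreated one was 0.32 (adjusted p = 0.0396) after median-of-ratios scaling and -0.30 (adjusted p = 0.0521) with the GC trend removed, so its sign depended on the setting. In MPP+ it was -0.32 after GC trend removal (adjusted p = 0.00289) and was called with library weights as well (-0.14, adjusted p = 0.0476). The libraries behind these were 72.8, 73.6 and 76.6 TPM in shMCART1 and 69.4, 61.2 and 75.6 TPM in shScramble, which overlapped, and 26.5, 26.8 and 28.5 TPM against 29.4, 29.9 and 30.8 TPM in MPP+, which did not.

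Whether an effect of MCART1 differed between the 2 conditions was tested as the difference of the within-table changes over all 24 libraries. The overexpression change of *SLC25A51* itself differed by 2.23 (limma adjusted p = 1.32e-07), with oeNC at 31.6 TPM untreated and 8.49 TPM in MPP+. The size of the overexpression and its control level thus differed too, and their part in the differences was not tested. For overexpression 2 of 7 regulators were called beside 19.9% of all genes, 2 higher in MPP+ (14.1%) and 0 lower (5.87%): *HCFC1* by 0.97 (SE 0.10, adjusted p = 2.28e-06) and *PPRC1* by 0.34 (SE 0.11, adjusted p = 0.0321). *HCFC1* stayed called in each of its alternatives, including the one with the GC trend removed (0.87, adjusted p = 3.88e-05), under which *ESRRA* was called as well (-0.39, adjusted p = 0.017). *PPRC1* was not called with the GC trend removed (0.23), after median-of-ratios scaling (0.24) or quantile normalization (0.20), or when single libraries were left out (oeNC replicate 3, oeMCART1 replicate 1, treated oeNC replicate 2 or 3, treated oeMCART1 replicate 1 or 2, adjusted p 0.0531 to 0.0883). The difference in the *YY1* effect was 0.02 (95% interval -0.35 to 0.39). For the knockdown limma called 0 of 7 beside 4.49% of all genes (2.02% higher and 2.48% lower), and 2 had an unadjusted p under 0.05, *ESRRA* at -0.48 (adjusted p = 0.0749) and *HCFC1* at -0.25 (adjusted p = 0.129). With library weights 3 were called, beside 4450 of all 13571 genes. Without shMCART1 replicate 2 there were 2, beside 2559 of all 13520 genes.

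The control lines themselves differed in MPP+. Of the 7 regulators 3 were called between treated oeNC and shScramble cells beside 47.9% of all genes, 1 higher (5.13%) and 2 lower (42.8%): *YY1* and *GABPA* (-0.50, adjusted p = 0.0166) were lower and *ESRRA* (0.33, adjusted p = 0.00206) higher in oeNC. After GC trend removal *GABPA* (-0.26) and *ESRRA* (0.04) were not called and *HCFC1* (-0.36, adjusted p = 0.000781) was. *GABPA* was not called after median-of-ratios scaling either (-0.27). In untreated cells limma called 0 of 7 beside 1.29% of all genes (0.197% higher and 1.09% lower), and 2 had an unadjusted p under 0.05, *YY1* and *HCFC1* (0.20, adjusted p = 0.128). Knockdown and overexpression were each set against their own control, so the overexpression changes share the oeNC libraries with these comparisons.

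Single libraries decided the untreated knockdown. Without shScramble replicate 2 none of its 3 regulator calls passed (limma adjusted p = 0.0743 for *GABPA*, 0.0743 for *YY1* and 0.0881 for *ESRRA*), and 2 genes of the whole table did. Fitted on the shScramble and shMCART1 libraries alone, 0 regulators and 0 genes passed, with 5799 genes at an unadjusted p under 0.05, and the 3 regulators had adjusted p-values of 0.0598, 0.0598 and 0.0635. shMCART1 replicate 3 held the lowest *GABPA*, *YY1* and *PPARGC1B* and the highest *ESRRA* of the knockdown. The direction of the 3 changes was kept in each of these fits. In the MPP+ knockdown the *YY1* call was lost without treated shScramble replicate 3 (-0.29, adjusted p = 0.0522).

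Set side by side, without a test because the tables were scaled separately, most regulators read lower after MPP+. The mean of *PPARGC1B* in treated cells was 32.1% to 43.8% of that in untreated cells over the 4 lines, and that of *PPRC1* 54.2% to 68.6%. *HCFC1* stood at 43.7% in shScramble, 36.7% in shMCART1 and 35.6% in oeNC cells, but at 70.9% in oeMCART1 cells. *YY1* ranged from 61.5% to 88.2% and *GABPA* from 42.1% to 101.0%, with the highest value of each in shMCART1 cells. *NRF1* ranged from 85.0% to 99.4%, with treated and untreated libraries overlapping in all 4 lines, and *ESRRA* from 66.7% in shMCART1 to 115.1% in oeNC cells. The median of all genes was 84.5% to 97.7%.

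The regulators' partners were read from a list of 26 genes, of which 24 were tested. In untreated cells 10 (41.7%) were called with the knockdown beside 34.2% of all genes, 1 higher (8.64% of all genes) and 9 lower (25.6%), with a list median of -0.38 beside -0.15 over all genes. With overexpression 14 (58.3%) were called beside 48.2%, 11 higher (33.5%) and 3 lower (14.7%), with a list median of 0.39 beside 0.16. *ZNF143* fell by 0.70 with the knockdown (SE 0.19, adjusted p = 0.0216), as did *INO80* (-0.59), the remodelling ATPase that works with YY1, *NCOA2* (-0.61), a nuclear receptor coactivator, and *PPARG* (-0.56), a receptor coactivated by PGC-1α. *GABPB1* rose by 0.86 with overexpression (SE 0.15, adjusted p = 0.00418), from 5.68, 8.47 and 6.75 TPM in oeNC to 13.2, 12.8 and 14.0 TPM, without overlap. *MED1* (0.83), the Mediator subunit that binds nuclear receptors, and *NCOA2* (0.77) rose too, and *RXRB* (-0.42), a retinoid X receptor, fell. Removing the GC trend ended the calls of *ZNF143* (-0.39), *NCOA2* (-0.35) and *PPARG* (-0.33) with the knockdown and of *RXRB* (-0.0088) with overexpression.

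In MPP+ 6 of the 24 partners (25%, all genes 33.1%) were called with the knockdown, 2 higher and 4 lower (list median -0.12, all genes -0.08). With overexpression 15 (62.5%, all genes 60.9%) were called, 12 higher and 3 lower (list median 0.16, all genes 0.26). *OGT*, the O-GlcNAc transferase that cleaves and matures HCFC1, fell by 0.55 with the knockdown and rose by 1.23 with overexpression (SE 0.10 for each, adjusted p = 0.00237 and 2.6e-06). Treated oeMCART1 libraries had 37.2, 36.4 and 34.4 TPM of it, all above the 21.7, 25.6 and 28.0 TPM of shScramble, and oeNC had 16.4, 14.0 and 13.9 TPM. *MYC* moved the other way, 0.54 with the knockdown and -0.59 with overexpression. *CREBBP*, a histone acetyltransferase, rose by 1.02 and *MED1* by 0.65 with overexpression, while *RXRA* (-0.33) and *INO80* (-0.55) fell with the knockdown.

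**Figure D3:**
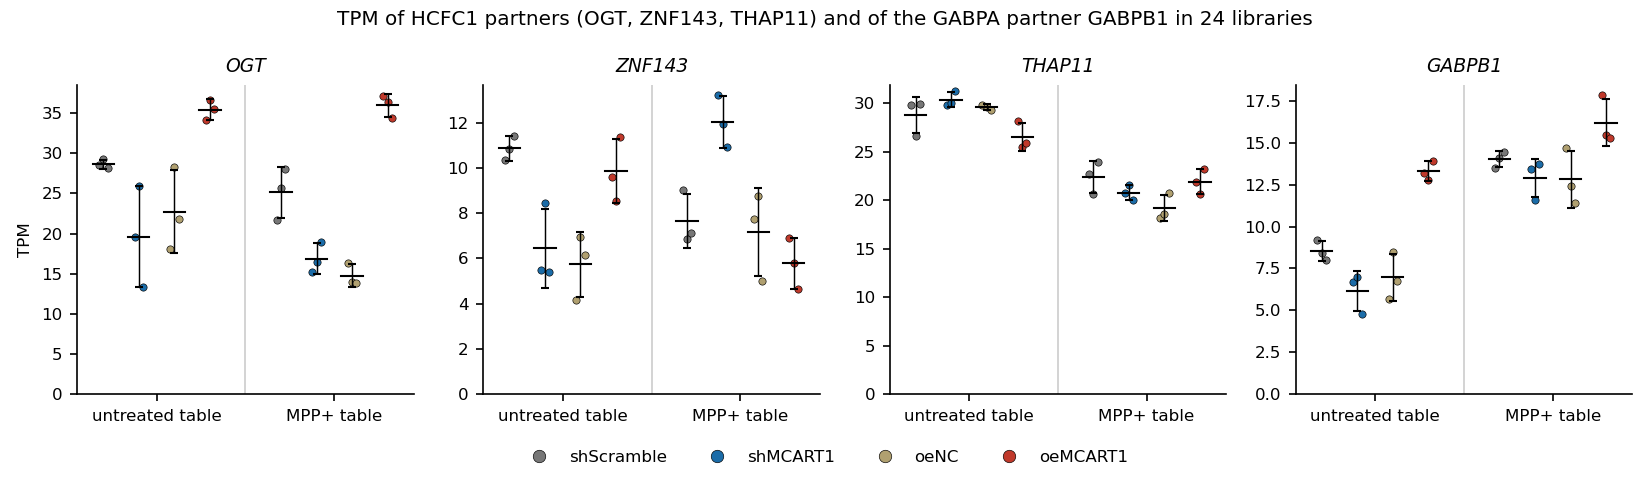
TPM (vertical axes, each from 0) of *OGT*, *ZNF143* and *THAP11*, partners of HCFC1, and of *GABPB1*, the partner subunit of GABPA, in all 24 libraries, untreated left and MPP+ right of the grey line, with the mean and SD of 3 libraries. *OGT* is highest in oeMCART1 cells in both tables, and the 3 treated oeMCART1 libraries read 34.4 to 37.2 TPM.

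Of 35 genes that act upstream of the network (AMPK subunits, deacetylases, kinases, CREB and MEF2 factors), 34 were tested. In untreated cells 17 (50%, all genes 34.2%) were called with the knockdown, 4 higher and 13 lower (list median -0.33, all genes -0.15). With overexpression 21 (61.8%, all genes 48.2%) were called, 15 higher and 6 lower (list median 0.35, all genes 0.16). *SIRT1*, the NAD+-dependent deacetylase of PGC-1α, was among those that moved in both: shMCART1 libraries had 5.47, 6.46 and 3.52 TPM against 10.3, 13.3 and 10.3 TPM, and oeMCART1 libraries 14.6, 15.9 and 17.2 TPM against 5.65, 9.49 and 7.73 TPM. Its changes were -1.02 (SE 0.20, adjusted p = 0.0141) and 0.99 (SE 0.20, adjusted p = 0.005). *STK11*, the kinase LKB1 that activates AMPK, moved the opposite way, 0.51 and -0.60, and those calls ended with the GC trend removed (0.04 and -0.06). *PRKAA1*, an AMPK catalytic subunit, rose by 1.17 and *NRIP1*, a nuclear receptor corepressor, by 0.63 with overexpression, and *HIF1A* (-0.87) and *ATF2* (-0.75) fell with the knockdown. Of these, *NRIP1* (0.12), *HIF1A* (-0.42) and *ATF2* (-0.30) were not called after GC trend removal. In MPP+ 11 (32.4%, all genes 33.1%) were called with the knockdown, 3 higher and 8 lower (list median -0.13, all genes -0.08), and 28 (82.4%, all genes 60.9%) with overexpression, 21 higher and 7 lower (list median 0.36, all genes 0.26). *PRKAB2*, an AMPK regulatory subunit, fell by 0.67 with the knockdown and rose by 0.87 with overexpression there. *NCOR1* (-0.53) and *PRKAG2* (-0.47) fell with the treated knockdown, and *MEF2A* (1.07), *PRKAB1* (0.70) and *RNF34* (0.61) rose with treated overexpression.

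All 49 genes on the list of direct targets were tested. In untreated cells 25 (51.0%, all genes 34.2%) were called with the knockdown, 8 higher and 17 lower (list median -0.06, all genes -0.15), and 32 (65.3%, all genes 48.2%) with overexpression, 19 higher and 13 lower (0.05 and 0.16). In MPP+ 24 (49%, all genes 33.1%) were called with the knockdown, 12 higher and 12 lower (-0.01 and -0.08), and 35 (71.4%, all genes 60.9%) with overexpression, 24 higher and 11 lower (0.19 and 0.26). *TFAM* fell by 0.94 with the untreated knockdown (SE 0.16, adjusted p = 0.0139) and rose by 1.08 and 1.42 with overexpression without and with MPP+ (adjusted p = 0.0041 and 9.24e-07). The treated oeMCART1 libraries had 18.1, 17.3 and 15.0 TPM of *TFAM* against 5.45, 6.16 and 5.37 TPM in oeNC and 9.96, 9.72 and 10.1 TPM in shScramble, so they lay above both controls. GC trend removal left the 3 changes at -0.50, 0.57 and 1.01, all called. *POLRMT*, the mitochondrial RNA polymerase, fell by 0.70 with untreated overexpression, and that call ended with the GC trend removed (-0.15).

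Other targets moved in both directions. *ACADM*, a fatty acid dehydrogenase, changed by -0.84 with the untreated knockdown and by 1.03 with untreated overexpression. In the untreated knockdown *IDH3A*, of the citrate cycle, changed by -0.83 and *ATP5F1C*, of ATP synthase, by -0.69. *SDHD*, of complex II, rose by 0.99 with untreated overexpression. *SSBP1*, which coats single-stranded mitochondrial DNA, fell by 0.42 with the treated knockdown and rose by 0.51 with treated overexpression. With both GC trend removal and the replicate block that rise was 0.11 and not called (limma adjusted p = 0.0652). *ATP5PB* (-0.55) fell with the treated knockdown, where *MDH2* (0.29) and *COX7C* (0.22) rose, and treated overexpression had higher *ATP5F1C* (0.60) and lower *IDH2* (-0.67). Between the conditions, the overexpression effect differed for 6 of 24 partners (3 higher and 3 lower in MPP+), 10 of 33 upstream genes and 13 of 49 targets (25%, 30.3% and 26.5%, all genes 19.9%). The knockdown effect differed for 3, 3 and 2 of them (12.5%, 9.09% and 4.08%, all genes 4.49%). Among partners of HCFC1, *THAP11* differed by 0.34 for overexpression, in the direction of *HCFC1* and *PPRC1*, and *ZNF143* by -0.95, in the opposite one. *ZNF143* also differed for the knockdown, by 1.29: it was called lower untreated and higher in MPP+ (0.59), where shMCART1 libraries had 13.2, 11.9 and 10.9 TPM and shScramble 9.04, 6.85 and 7.12 TPM. *MYC* differed by 0.75 for the knockdown and -0.75 for overexpression, and *CREBBP* by 0.65 for overexpression. All named values of the 3 lists are of genes called in that comparison, up to 4 with the smallest p in each, and of *ZNF143* in the MPP+ knockdown, added after its values were seen.

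**Figure D4:**
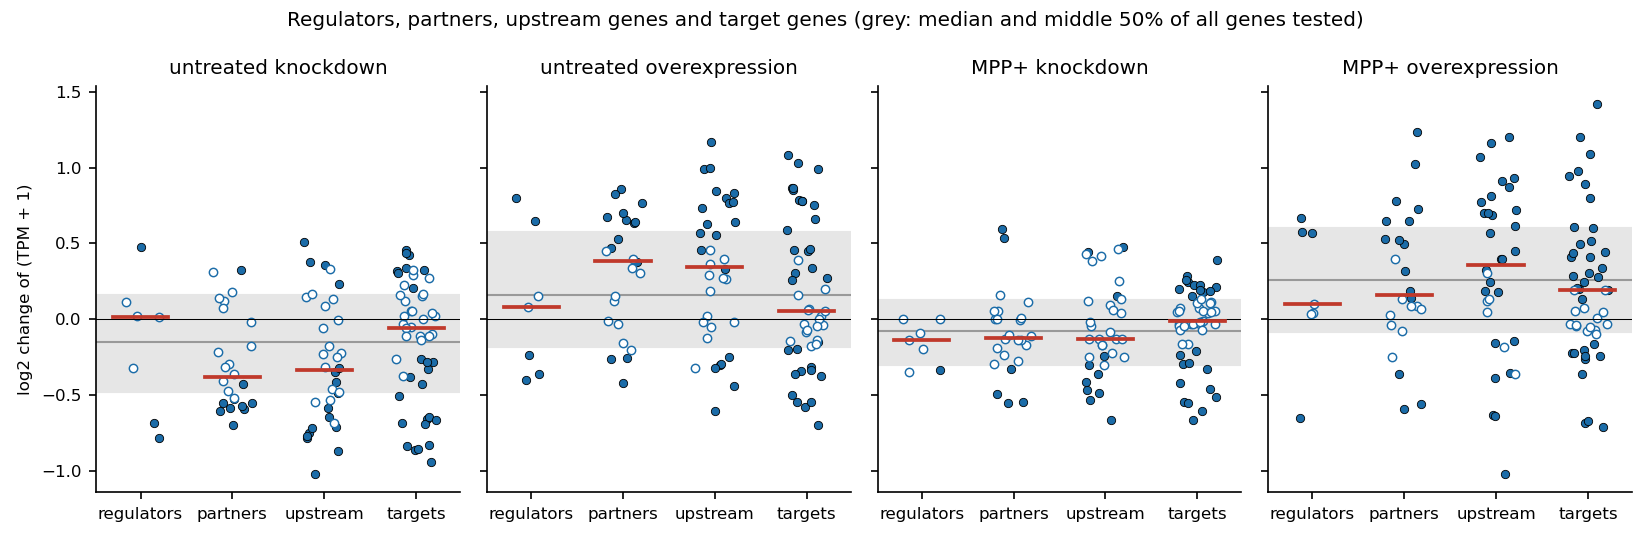
Log2 change of (TPM + 1) of every tested gene of the regulators and of the 3 lists in the 4 comparisons. Filled points have an adjusted p under 0.05, red lines are list medians, and the grey band and line are the middle 50% and the median of all genes tested. Each list holds genes on both sides of 0, and *TFAM* is the highest target in both overexpression panels, at 1.08 and 1.42.

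The genes most like each regulator were sought by the mean of the within-table Pearson correlations over 12 untreated and 12 treated libraries, among 13505 other genes. *YY1* was closest to *TM9SF3* (mean r 0.99), *PAICS* (0.99) and *CSE1L* (0.99), *GABPA* to *LRRC40* (0.98), *CBX3* (0.97) and *TBC1D23* (0.97), *HCFC1* to *NXF1* (0.97), *PPIF* (0.95) and *E2F4* (0.94), and *ESRRA* to the ribosomal protein genes *RPS3*, *RPL18* and *RPS10* (0.94 each). The likeness was lower for *PPARGC1B* (*DISC1*, 0.87), *PPRC1* (*MAU2*, 0.82) and *NRF1* (*COLEC11*, 0.66). The transcripts nearest to *GABPA* have 35.1% to 39.5% GC and those nearest to *YY1* 36.1% to 42.3%, below the median of 48.8%. All points share their libraries and groups, so these are descriptions without a test.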

How the data were processed

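The authors deposited TPM values in 2 tables, one for the 12 untreated and one for the 12 treated libraries, which were scaled separately. Libraries were made from polyadenylated RNA with a kit that keeps the strand, per the labels' protocols. No aligner, annotation or use of strand in counting is given in the sources used here. GRCm38, mm10 and GRCh38 appear as builds in the submitters' processing notes with no role stated. Entries without a gene identifier (25 and 42) were left out, and 31524 identifiers are shared. Tested were 14703 untreated and 14895 treated genes, and 13571 for differences, on log2(TPM + 1) by limma 3.58.1 in R 4.3.3 with trended variances. Each fit held the 4 groups of its table (differences: all 24 libraries), and p-values were adjusted by Benjamini-Hochberg over all genes. *PPARGC1A*, below the filter, had a two-sided exact permutation test on its TPM. The script was tested on simulated data.

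The GC trend was removed per library with a natural spline (5 degrees of freedom) on the GC content of each gene's longest GENCODE 29 transcript. Promoters (250 bases before to 50 after each start) came from RefSeq, GRCh38.p14, where 6 of the 8 genes matched, and a single start was searched per regulator. For *PPARGC1A* and *PPARGC1B* that start lay far from the start of the GENCODE 29 gene. Replicates of a group correlated at 0.970 to 0.988. The regulators and lists were chosen with earlier results of these data known. Named from each list were up to 4 called genes with the smallest p per comparison, and for each regulator the 3 most alike genes. A result that needs a withheld item is not reported here. Alternatives covered the pseudocount (0.1), the filter (none, or 5 TPM), the scaling (median-of-ratios, quantile, mitochondrial DNA genes left out), a replicate block, GC trend removal with and without it, robust variances, library weights, fits on the compared groups alone, and each library left out. Python 3.11.15, pandas 2.3.3, scipy 1.17.1 and matplotlib 3.10.9 were used.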

Additional observations from a re-analysis of the deposited data

Results flagged for a closer look

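The effect of overexpression differed between untreated and MPP+-treated cells for 2 regulators by the limma test of the difference itself. *HCFC1* differed by 0.97 on the log2 scale, falling by 0.40 untreated and rising by 0.57 in MPP+. With the GC trend removed the untreated change was 0.09 and not called (adjusted p = 0.525), and the difference was 0.87 and still called. Untreated oeMCART1 libraries also overlapped shScramble. *PPRC1* differed by 0.34, with -0.24 untreated and 0.10 in MPP+, the latter not called. Its difference was not called with the GC trend removed (0.23). The overexpression change of *SLC25A51* itself also differed, by 2.23, and its part was not tested.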

How the results depend on the processing

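The counts of called regulators varied as follows when each library was left out in turn: 0 to 4 for the untreated knockdown, 3 to 4 for untreated overexpression, 0 to 2 for the knockdown in MPP+, 4 to 5 for overexpression in MPP+, 0 to 0 and 3 to 3 for the untreated and treated controls, 0 to 2 for the knockdown difference and 1 to 2 for the overexpression difference. Calls over all genes varied in the same fits. In that order they ran from 2 of 14611 to 7247 of 14595 and from 4005 of 14644 to 7696 of 14632. In MPP+ they ran from 3413 of 14752 to 4600 of 14766 and from 8143 of 14723 to 8707 of 14835. The controls had 6 of 14644 to 2250 of 14632 and 5627 of 14752 to 6809 of 14835. The differences had 257 of 13534 to 2559 of 13520 and 2137 of 13552 to 2748 of 13544. The untreated knockdown had 0 when only the groups compared were fitted. With the GC trend removed, with or without the replicate block, untreated overexpression had 2 and the MPP+ knockdown 3. Without the block, 3616 of 14157 and 4151 of 13923 genes were called in these. Library weights also gave 3 in the MPP+ knockdown, beside 6079 of 14895 genes. The untreated controls had 1 with the GC trend removed and the replicate block (2657 of 14157 genes), and 3 with library weights (8041 of 14703 genes). The knockdown difference had 1 with the replicate block alone (*ESRRA*, -0.48, adjusted p = 0.0491), beside 1108 of 13571 genes. It had 3 with library weights, beside 4450 genes. The overexpression difference had 1 with median-of-ratios (2327 genes) or quantile scaling (2475 genes). Single regulators changed sign as follows. With the GC trend removed, also with the replicate block, *PPRC1* (-0.28) and *HCFC1* (-0.30) did so in the untreated knockdown, *PPRC1* (0.12), *ESRRA* (0.15) and *HCFC1* (0.085) in untreated overexpression and *PPRC1* (-0.12) in the MPP+ knockdown. None of these was called without the block, and with it *HCFC1* in the untreated knockdown was (adjusted p = 0.0362). With library weights these were *PPRC1* (-0.038) and *NRF1* (-0.060) in the untreated and *ESRRA* (0.020) in the MPP+ knockdown. With median-of-ratios scaling they were, for untreated overexpression, *PPARGC1B* (-0.046) and *NRF1* (-0.13), for the MPP+ knockdown *ESRRA* (0.10), and for MPP+ overexpression *PPARGC1B* (-0.19), *PPRC1* (-0.22, called) and *NRF1* (-0.27, called). With quantile normalization they were *PPARGC1B* (-0.15) and *NRF1* (-0.17), then *PPARGC1B* (0.0067) and *ESRRA* (0.078), then *PPARGC1B* (-0.23), *PPRC1* (-0.17) and *NRF1* (-0.26, called). With single libraries left out, values crossed 0 for *PPRC1* (-0.056 to 0.067 in the untreated and -0.040 to 0.045 in the MPP+ knockdown), *NRF1* (-0.080 to 0.11 in the untreated knockdown, -0.017 to 0.11 in MPP+ overexpression), *ESRRA* (-0.050 to 0.045 in the MPP+ knockdown) and *PPARGC1B* (-0.0045 to 0.081 in MPP+ overexpression), all uncalled. The cause was not tested. The labels number the replicates 1 to 3 but do not say that equal numbers belong together. Same-numbered libraries of compared groups correlated at -0.07 to 0.21 in their deviations, 5 of 18 pairs over 0.1. Of 36 settings of a library against the 3 libraries of a compared group, 21 were highest for its own number. The main fits held no replicate term, and a batch shared by equal numbers was not tested. Over all genes, calls for the untreated knockdown ranged from 0 to 10110 and for untreated overexpression from 3616 to 11287 across alternatives. In the untreated controls (189 main) they ranged from 6 to 8041, with 1936 under the replicate block, and in the knockdown difference (610 main) from 119 to 4450. Depth is unknown, so no limit for low genes such as *PPARGC1A* can be given.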
